A study of Homo sapiens with 12 samples.

Results

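The 32 genes described here encode the enzymes and regulators of sterol and fatty acid synthesis and of cholesterol uptake and efflux. They were chosen by symbol, with earlier results of these data known, and all 32 were found among the 60671 Ensembl genes of the count table. They were measured by poly(A) RNA sequencing in BJ-5ta, a line of human skin fibroblasts immortalised with telomerase (hTERT), in 4 groups of 3 libraries. WT_10 and Leo1_10 were grown in RPMI with 10% fetal bovine serum, and WT_01 and Leo1_01 spent 10 days in RPMI with 0.1% serum, the condition used to bring the cells into quiescence. WT is the wild-type line. Leo1 is ΔLEO1, a single CRISPR clone (clone 13) made with guides to exons 1 and 2 of LEO1, a subunit of the PAF1 complex of transcription elongation, so that genotype and clone cannot be told apart. The labels do not say whether the 3 libraries of a group came from separate cultures, and p-values then measure only the spread between these libraries, which may be technical. A lower RNA level in such bulk samples cannot be told apart from fewer cells of a kind or less RNA per cell.

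Cholesterol is built from acetyl-CoA through mevalonate, farnesyl diphosphate, squalene and lanosterol. When sterols in the endoplasmic reticulum run low, the escort protein SCAP is no longer held by the retention proteins INSIG1 and INSIG2 and carries SREBP1 and SREBP2 (genes SREBF1 and SREBF2) to the Golgi, where they are cleaved and go on to turn on the genes of synthesis and uptake. When oxysterols are plentiful, the LXR receptors raise the transporters ABCA1 and ABCG1, which export cholesterol, and the ubiquitin ligase MYLIP, which limits lipoprotein uptake. SREBP factors bind sterol regulatory elements and commonly act with factors at CCAAT and GC boxes.

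Promoter sequence was found for 27 of the 32 members in a table of RefSeq promoters (GRCh38.p14) that runs from 250 bases before to 50 bases after each start. These members had 36 windows between them, since some have more than 1 start. Stretches before the start are shown for SREBF2, HMGCS1, INSIG1, MSMO1 and MVD, which were higher in ΔLEO1 cells in both sera, and for ABCA1, which was not. They are written 5′ to 3′ on the strand of the gene and end before the first annotated base of the gene, and the capitals mark 4 motifs searched on both strands: the sterol regulatory element TCACNCCAC, the CCAAT box, the GC box with the letters GGGCGG, and the E-box with the letters CACGTG. A box on the other strand shows as its reverse complement.
SREBF2, chr22:41832905-41833059, plus strand: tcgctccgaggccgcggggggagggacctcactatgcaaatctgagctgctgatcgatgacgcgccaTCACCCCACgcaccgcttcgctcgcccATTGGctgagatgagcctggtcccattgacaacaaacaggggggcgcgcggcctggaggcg
HMGCS1, chr5:43313513-43313612, minus strand: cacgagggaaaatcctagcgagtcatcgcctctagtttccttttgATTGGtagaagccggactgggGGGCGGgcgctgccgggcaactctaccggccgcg
INSIG1, chr7:155297678-155297775, plus strand: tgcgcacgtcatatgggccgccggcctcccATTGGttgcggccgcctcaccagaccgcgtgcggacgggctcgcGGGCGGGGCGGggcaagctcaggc
MSMO1, chr4:165327469-165327622, plus strand: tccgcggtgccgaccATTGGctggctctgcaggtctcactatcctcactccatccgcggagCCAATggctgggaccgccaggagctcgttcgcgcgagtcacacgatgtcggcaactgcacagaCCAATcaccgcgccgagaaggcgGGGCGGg
MVD, chr16:88663162-88663291, minus strand: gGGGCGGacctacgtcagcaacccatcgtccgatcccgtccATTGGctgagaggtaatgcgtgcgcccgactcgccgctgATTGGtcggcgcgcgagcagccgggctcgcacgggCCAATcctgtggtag
ABCA1, chr9:104928238-104928355, minus strand: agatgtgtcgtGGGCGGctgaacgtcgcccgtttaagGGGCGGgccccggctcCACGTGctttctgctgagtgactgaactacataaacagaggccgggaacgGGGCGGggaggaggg
The 9-letter sterol element stood in 1 of the 36 member windows, that of SREBF2, at 133 bases before the start and 27 bases from an inverted CCAAT box. It was found in 1.13% of all 35116 windows. Variants of these 9 letters were not searched, so a window without them may still hold a sterol regulatory element. A CCAAT box was found in 24 of the 36 member windows, or 66.7%, against 34.6% of all windows, and a GC box in 33 of 36, or 91.7%, against 45.0%. MVD and MSMO1 each carried 3 CCAAT boxes in the stretch shown, and ABCA1 carried none. The E-box was in 6 of the 36 windows and in 7.26% of all. These counts describe letters in a window and do not show binding. The SREBF2 stretch also lies within the noncoding antisense gene SREBF2-AS1.

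LEO1 itself had 682 to 1001 counts in the 6 wild-type libraries and 23 to 55 in the 6 ΔLEO1 libraries. The change, on the log2 scale, came to -4.38 (SE 0.27, adjusted p = 3.89e-07) in 10% serum and -4.51 (SE 0.27, adjusted p = 5.85e-07) in 0.1% serum. Gene counts ran from 26240632 to 45315560 per library, and ERCC transcripts, synthetic RNA added to each sample, made up 0.625% to 3.24% of the counts. All 10 fibroblast markers were present in each group. The 4 adipocyte markers summed to 0.514 to 0.799 CPM in ΔLEO1 and 0.225 to 0.330 in wild-type libraries, with 2 of the 4 at 0 counts in every group. The 5 epithelial markers, nearly all KRT18, summed to 828 to 1155 CPM in Leo1_10 against 271 to 413 in WT_10, and to 480.0 to 526 in Leo1_01 against 93.5 to 96.9 in WT_01. The 4 leukocyte markers summed to 1.89 to 8.02 CPM in ΔLEO1 and 0.843 to 1.87 in wild-type libraries, the 4 endothelial markers to 0.394 to 0.659 in ΔLEO1 and 2.09 to 5.41 in wild-type libraries, and the 4 hepatocyte markers to at most 0.265 in any library. The part of these cell types in the results was not tested. In each group the library with the highest running number stood apart from the other two, with a chi-square per gene of 66.2 to 144 in pairs that held it and 3.04 to 12.1 in pairs that did not.

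Each comparison was fitted on 2 scales. The gene scale (CPM, counts scaled by the library total with TMM factors on the genes) gives a level relative to the other genes, and the spike-in scale, the scale of the study, gives it relative to the added ERCC RNA. On the spike-in scale the median gene fell by 0.97 (log2) in low serum in wild-type cells and by 1.05 in ΔLEO1 cells, and lay 0.35 and 0.27 higher in ΔLEO1 than in wild-type cells in 10% and 0.1% serum. Values are on the gene scale unless stated, changes are log2 fold changes, and a library is named by its group and running number (WT_01_9). A gene was called where edgeR's quasi-likelihood test gave a Benjamini-Hochberg adjusted p under 0.05 over the 13236 genes tested. ABCG1, a sterol exporter, was not tested, since it had 1 count in 1 Leo1_01 library and 0 in the other 11.

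ΔLEO1 cells had more RNA of most members of the pathway than wild-type cells, in both sera. In 10% serum 23 of the 31 tested members were higher and 1 was lower, where 17.9% of all genes were higher and 21.4% lower. In 0.1% serum 23 members were higher and 2 lower, where 15.1% of all genes were higher and 17.3% lower. The 23 higher members were the same genes in both sera, 100% of each list. These 2 comparisons share no library, but they set the same clone against the same wild-type line in the same fit. The matching overlap over all genes was not counted, so the overlap of the members has no background beside it. The median change of the 31 members was 0.88 (range -1.14 to 2.31) in 10% serum and 1.00 (range -1.44 to 1.97) in 0.1% serum, against 0.00 and 0.02 for all genes. The ΔLEO1 libraries lay above all wild-type libraries for 24 members in 10% serum and 25 in 0.1% serum, which held for 29.2% and 20.5% of all genes. They lay below all wild-type libraries for 1 member in 10% serum and 2 in 0.1% serum, which held for 30.1% and 21.7% of all genes.

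On the spike-in scale 12 members were higher and 0 lower in 10% serum, where 3.81% of all genes were higher and 4.20% lower. In 0.1% serum 7 were higher and 0 lower, where 3.49% and 3.41% of all genes were called. The 7 were ACAT2, HMGCS1, TM7SF2, DHCR7, INSIG1, FASN and SCD, all among the 12 of 10% serum, which also held MVK, MVD, IDI1, MSMO1 and MYLIP. The count of 12 was 7 without Leo1_10_4 and 20 without Leo1_01_12, and the count of 7 was 4 without WT_01_7 or WT_01_9 and 19 without Leo1_01_11. In these runs the share of all genes called was not counted. The SEs of the members' genotype changes ran from 0.46 to 0.56 on this scale and from 0.09 to 0.43 on the gene scale. On this scale the ΔLEO1 libraries lay above all wild-type libraries for 25 members in 10% serum and 16 in 0.1% serum, which held for 23.7% and 4.64% of all genes, and below them for 0 members in each, which held for 6.94% and 4.83% of all genes. All 23 members called higher on the gene scale had a positive change on the spike-in scale in both sera. The 2 scales use the same counts, and the spike-in scale moves the median gene upward in ΔLEO1 cells, so this sign adds no separate support. Members took 0.147% to 0.208% of all gene counts in WT_10, 0.160% to 0.168% in WT_01, 0.301% to 0.309% in Leo1_10 and 0.260% to 0.289% in Leo1_01, so that the share in every ΔLEO1 library was above that in every wild-type library.

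**Figure D1:**
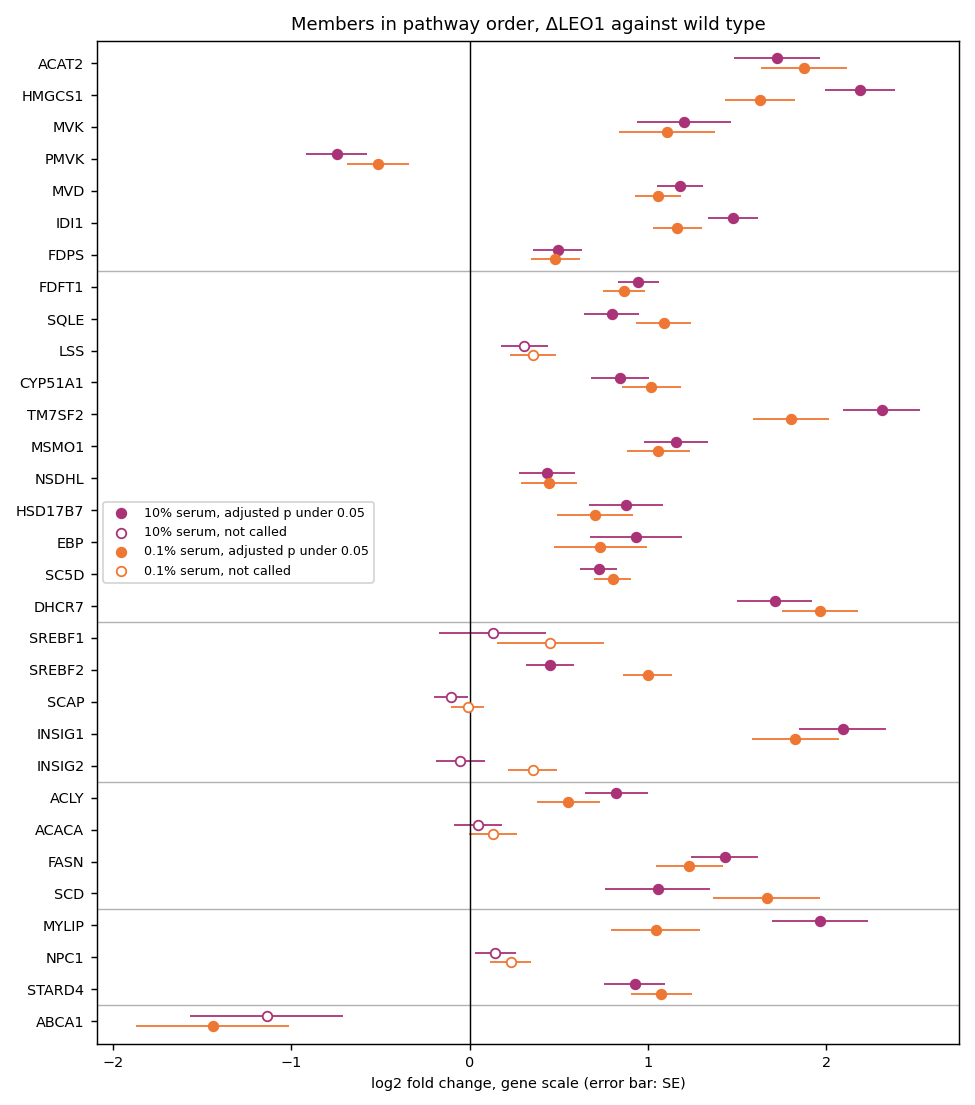
Log2 fold change of ΔLEO1 against wild type (x axis, gene scale) for the 31 tested members in pathway order (y axis), in 10% serum (purple) and 0.1% serum (orange). Bars are SE, filled points passed adjusted p under 0.05, and grey lines part the pathway steps: nearly all mevalonate and cholesterol enzymes lie right of 0, while PMVK and ABCA1 lie left.

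All 7 mevalonate genes changed with genotype in both sera, 6 upward and 1 downward. HMGCS1, the cytosolic HMG-CoA synthase (ENSG00000112972, chr5:43289395-43313512, minus strand), stood at 30.6, 29.8 and 24.4 CPM in WT_10, 30.7, 30.3 and 25.8 in WT_01, 145, 145 and 95.8 in Leo1_10 and 85.6, 112 and 70.4 in Leo1_01. Every ΔLEO1 library was above every wild-type library. HMGCS1 was 4.56-fold higher in 10% serum (on the log2 scale, 2.19 with an SE of 0.20 and an adjusted p of 6.65e-06) and 3.09-fold higher in 0.1% serum (1.63 with an SE of 0.19 and an adjusted p of 8.08e-05). ACAT2, the cytosolic thiolase that joins acetyl units ahead of HMGCS1 (ENSG00000120437, chr6:159760328-159779055, plus strand), had 9.13, 9.77 and 8.06 CPM in WT_10, 5.71, 5.76 and 11.5 in WT_01, 31.9, 32.9 and 24.3 in Leo1_10 and 30.7, 28.8 and 25.2 in Leo1_01. The groups of the 2 genotypes did not overlap in either serum, with changes of 1.72 (SE 0.24, adjusted p = 0.000168) and 1.88 (SE 0.24, adjusted p = 0.000139). ACAT2 overlaps the genes TCP1 and SOD2 on the other strand, and 49.3% of its 58-base stretches are shared with them or SOD2-OT1. The shares of such stretches were 12.5% for HMGCS1 (with AC114947.2), 13.7% for IDI1 (with IDI2-AS1 and AC097523.2) and 11.6% for FDPS (with RUSC1-AS1 and other genes). The strand setting of the counting is not given in the sources used here.

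MVK, mevalonate kinase, read 8.99, 9.38 and 7.27 CPM in WT_10, 4.33, 4.44 and 10.1 in WT_01, 20.3, 20.4 and 18.3 in Leo1_10 and 12.8, 13.5 and 14.5 in Leo1_01. It was higher in ΔLEO1 cells by 1.20 (SE 0.26, adjusted p = 0.00372) in 10% serum and by 1.11 (SE 0.27, adjusted p = 0.00814) in 0.1% serum. MVD, the decarboxylase that makes isopentenyl diphosphate (ENSG00000167508, chr16:88651935-88663161, minus strand), had 17.7, 19.7 and 19.3 CPM in WT_10, 17.3, 16.3 and 22.2 in WT_01, 42.6, 43.1 and 43.2 in Leo1_10 and 42.3, 41.5 and 32.5 in Leo1_01. Every ΔLEO1 library was above every wild-type library, and the changes were 1.18 (SE 0.13, adjusted p = 2.92e-05) and 1.06 (SE 0.13, adjusted p = 9.54e-05). IDI1, the isomerase of isopentenyl diphosphate, was at 29.2, 29.9 and 24.5 CPM in WT_10, 27.7, 26.2 and 26.4 in WT_01, 83.1, 82.2 and 67.5 in Leo1_10 and 63.4, 69.1 and 47.6 in Leo1_01. All 6 ΔLEO1 libraries lay above the highest wild-type library, with changes of 1.48 (SE 0.14, adjusted p = 9.22e-06) and 1.17 (SE 0.14, adjusted p = 8.08e-05). FDPS, which makes farnesyl diphosphate, was at 54.6, 52.9 and 52.7 CPM in WT_10, 41.7, 40.6 and 59.9 in WT_01, 71.7, 76.2 and 77.9 in Leo1_10 and 73.5, 66.9 and 58.2 in Leo1_01. Its groups were apart in 10% serum but overlapped in 0.1% serum, where WT_01_9 lay above Leo1_01_12, and the changes were 0.49 (SE 0.14, adjusted p = 0.0141) and 0.48 (SE 0.14, adjusted p = 0.0202). The call in 0.1% serum was lost without WT_01_7, WT_01_8, Leo1_01_10 or Leo1_01_11, which gave 0.38 to 0.47.

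PMVK, phosphomevalonate kinase, which acts between MVK and MVD (ENSG00000163344, chr1:154924734-154936991, minus strand), went the other way. It stood at 16.1, 16.1 and 15.8 CPM in WT_10, 11.2, 11.3 and 18.1 in WT_01, 10.00, 8.51 and 10.1 in Leo1_10 and 9.43, 8.79 and 10.3 in Leo1_01. All ΔLEO1 libraries were below all wild-type libraries, and the changes were -0.75 (SE 0.17, adjusted p = 0.00489) and -0.51 (SE 0.17, adjusted p = 0.0395). Its direction was the same on the spike-in scale but neither change was called (-0.40 and -0.16). In 0.1% serum the call was lost without any 1 of 7 libraries (WT_10_1, WT_10_2, Leo1_10_4, Leo1_10_5, WT_01_9, Leo1_01_10 and Leo1_01_11), which gave -0.51 to -0.25. PMVK shared no 58-base stretch with another gene.

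**Figure D2:**
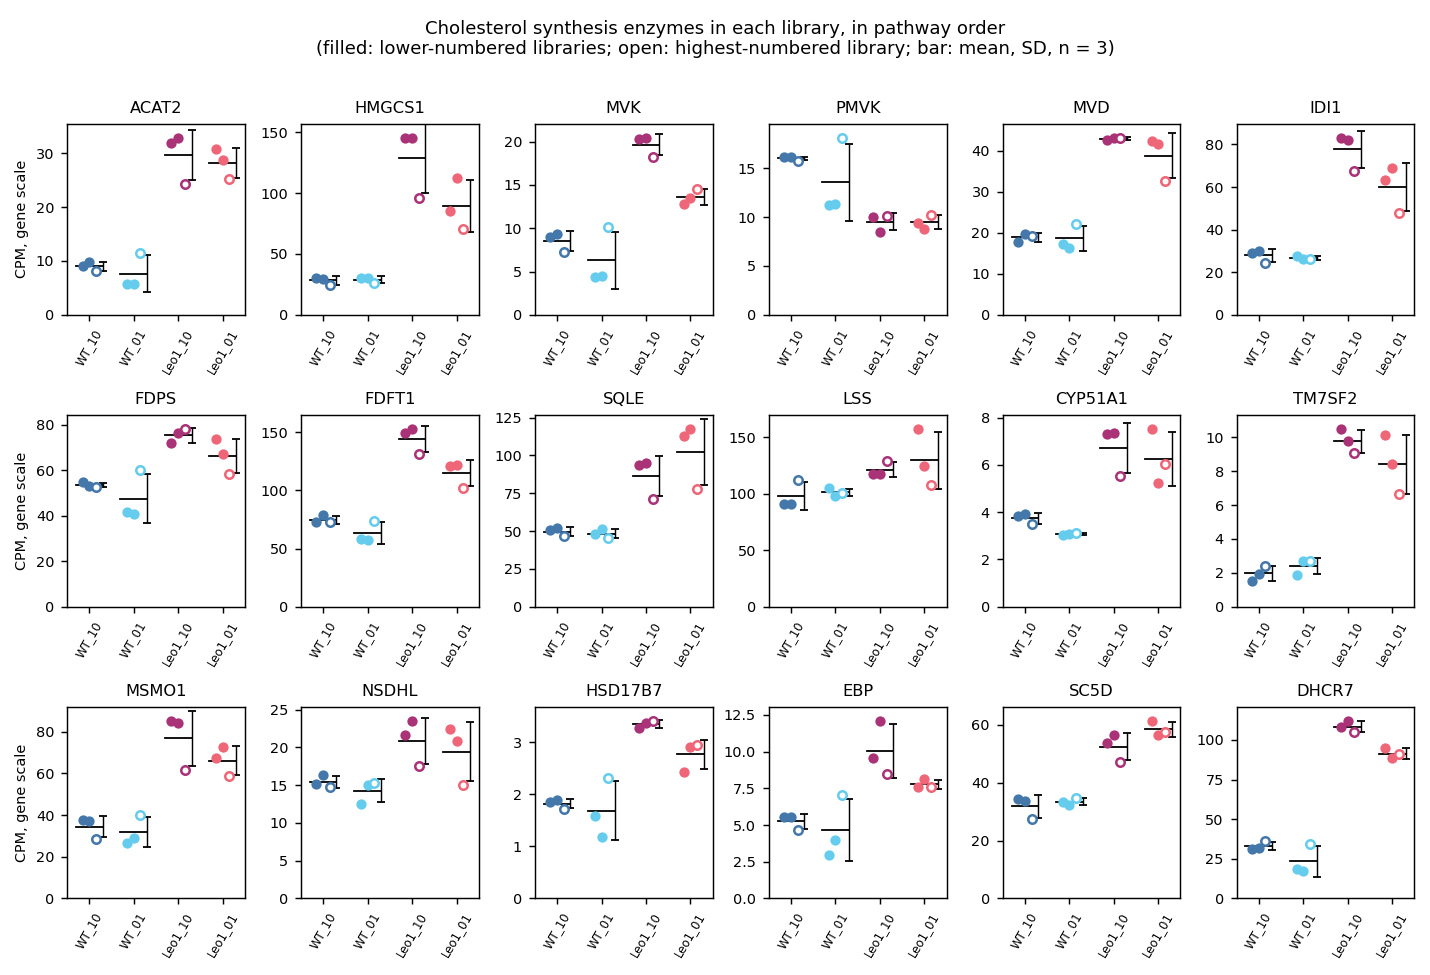
Level of the 18 mevalonate and cholesterol enzymes in each library (y axis, CPM on the gene scale, from 0; x axis, the 4 groups). Filled points are the lower-numbered libraries and open points the highest-numbered library of each group, with the mean and SD (n = 3): in most panels the ΔLEO1 points sit above both wild-type groups, in PMVK below them.

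Of the 11 genes from squalene to cholesterol, 10 were higher in ΔLEO1 cells in both sera, and LSS had positive changes that were not called. FDFT1, squalene synthase, was at 73.0, 78.9 and 72.6 CPM in WT_10, 58.03, 57.1 and 73.9 in WT_01, 149, 152 and 131 in Leo1_10 and 121, 122 and 102 in Leo1_01, and SQLE, the epoxidase that is a rate-limiting step, at 50.7, 51.9 and 46.4 CPM in WT_10, 47.8, 51.2 and 45.4 in WT_01, 93.5, 94.7 and 70.8 in Leo1_10 and 113, 117 and 77.5 in Leo1_01. For both genes all ΔLEO1 libraries were above all wild-type libraries. FDFT1 changed by 0.95 (SE 0.12, adjusted p = 6.75e-05) in 10% serum and 0.86 (SE 0.12, adjusted p = 0.000186) in 0.1% serum. SQLE changed by 0.80 (SE 0.15, adjusted p = 0.00167) and 1.09 (SE 0.16, adjusted p = 0.000282). LSS, which closes the rings to lanosterol, had a mean of 98.1 ± 12.4 CPM in WT_10, 101 ± 3.31 in WT_01, 121 ± 6.36 in Leo1_10 and 129.6 ± 25.1 in Leo1_01 (SD, n = 3). Its changes of 0.31 (SE 0.13, adjusted p = 0.0821) and 0.36 (SE 0.13, adjusted p = 0.0578) missed the threshold, although the ΔLEO1 libraries lay above the wild-type libraries of the same serum.

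CYP51A1, the lanosterol demethylase, had 3.82, 3.91 and 3.49 CPM in WT_10, 3.03, 3.08 and 3.13 in WT_01, 7.31, 7.33 and 5.51 in Leo1_10 and 7.49, 5.21 and 6.02 in Leo1_01. Its groups did not overlap, with changes of 0.84 (SE 0.16, adjusted p = 0.00166) and 1.02 (SE 0.17, adjusted p = 0.00073). Of its 58-base stretches 80.4% are shared with the overlapping gene AC000120.2 or with the pseudogenes CYP51A1P1 and CYP51A1P2, and its count is uncertain. TM7SF2, a sterol C14 reductase (ENSG00000149809, chr11:65111845-65116384, plus strand), had the largest change of all members in 10% serum. It stood at 1.52, 1.94 and 2.43 CPM in WT_10, 1.88, 2.68 and 2.69 in WT_01, 10.47, 9.77 and 9.08 in Leo1_10 and 10.1, 8.45 and 6.63 in Leo1_01. It was 4.96-fold higher in 10% serum (on the log2 scale, 2.31 with an SE of 0.22 and an adjusted p of 8.51e-06) and 3.49-fold higher in 0.1% serum (1.80 with an SE of 0.21 and an adjusted p of 8.04e-05), with no overlap of the genotypes. LBR, which carries the same reductase activity and is not a member, changed by 0.33 (SE 0.16, adjusted p = 0.128) and 0.32 (SE 0.16, adjusted p = 0.159) and was named after its values were seen.

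MSMO1, the sterol C4 methyl oxidase (ENSG00000052802, chr4:165327623-165343160, plus strand), was at 37.4, 37.3 and 28.7 CPM in WT_10, 26.4, 28.8 and 39.9 in WT_01, 85.0, 84.0 and 61.6 in Leo1_10 and 67.2, 72.5 and 58.7 in Leo1_01. Its ΔLEO1 libraries all exceeded the highest wild-type value, and the changes were 1.16 (SE 0.18, adjusted p = 0.000352) and 1.06 (SE 0.18, adjusted p = 0.000905). The 17 other tested genes within 5 Mb of MSMO1 had a median change of -0.34 in 10% serum and -0.76 in 0.1% serum, with 0 higher and 7 and 11 lower. NSDHL, a C4 decarboxylase, was at 15.1, 16.4 and 14.8 CPM in WT_10, 12.6, 15.003 and 15.3 in WT_01, 21.7, 23.5 and 17.5 in Leo1_10 and 22.4, 20.8 and 15.02 in Leo1_01, and HSD17B7, the ketoreductase of the same complex, at 1.85, 1.89 and 1.72 CPM in WT_10, 1.59, 1.17 and 2.31 in WT_01, 3.27, 3.37 and 3.41 in Leo1_10 and 2.44, 2.91 and 2.96 in Leo1_01. HSD17B7 levels were low but did not overlap between the genotypes, while Leo1_01_12 fell within the WT_01 values of NSDHL. NSDHL changed by 0.44 (SE 0.16, adjusted p = 0.0445) and 0.44 (SE 0.16, adjusted p = 0.0494), and HSD17B7 by 0.88 (SE 0.21, adjusted p = 0.00585) and 0.70 (SE 0.21, adjusted p = 0.0255). HSD17B7 shares 11.7% of its stretches with pseudogenes.

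EBP, the sterol isomerase, had 5.54, 5.57 and 4.65 CPM in WT_10, 2.94, 3.998 and 7.04 in WT_01, 9.58, 12.1 and 8.45 in Leo1_10 and 7.58, 8.12 and 7.59 in Leo1_01. The libraries of the 2 genotypes did not overlap, but WT_01_9 came close to the Leo1_01 values, and the changes were 0.93 (SE 0.26, adjusted p = 0.0131) and 0.73 (SE 0.26, adjusted p = 0.0494). SC5D, the C5 desaturase, had 34.5, 33.5 and 27.3 CPM in WT_10, 33.4, 32.5 and 34.6 in WT_01, 53.9, 56.4 and 47.1 in Leo1_10 and 61.3, 56.5 and 57.5 in Leo1_01. Its groups were tight and apart, with changes of 0.72 (SE 0.10, adjusted p = 0.000189) and 0.80 (SE 0.10, adjusted p = 0.000126). DHCR7, the reductase of the last step to cholesterol in one branch of the pathway (ENSG00000172893, chr11:71428193-71452868, minus strand), stood at 31.3, 31.9 and 36.0 CPM in WT_10, 18.4, 17.1 and 34.5 in WT_01, 108, 112 and 105 in Leo1_10 and 94.8, 88.4 and 90.9 in Leo1_01. The lowest ΔLEO1 library lay far above the highest wild-type library. DHCR7 was 3.27-fold higher in 10% serum (on the log2 scale, 1.71 with an SE of 0.21 and an adjusted p of 6.44e-05) and 3.91-fold higher in 0.1% serum (1.97 with an SE of 0.21 and an adjusted p of 3.84e-05).

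Of the calls between squalene and cholesterol, 5, of 3 genes, were lost without single libraries. The NSDHL call in 10% serum was lost without WT_10_1, WT_10_2, WT_10_3, Leo1_10_4, Leo1_10_5, WT_01_8 or Leo1_01_11 (0.34 to 0.48). In 0.1% serum it was lost without WT_10_1, WT_10_2, WT_10_3, Leo1_10_4, WT_01_7, WT_01_8, WT_01_9, Leo1_01_10 or Leo1_01_11 (0.33 to 0.49). EBP lost its call in 10% serum without Leo1_10_5 (0.78), and in 0.1% serum without any 1 of 10 libraries, all but WT_01_9 and Leo1_10_5 (0.48 to 0.75). HSD17B7 lost its call in 0.1% serum without WT_01_7, WT_01_8, Leo1_01_11 or Leo1_01_12 (0.50 to 0.67).

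The regulators of SREBP were split. SREBF2, the gene of the factor that drives sterol synthesis (ENSG00000198911, chr22:41833079-41907308, plus strand), and INSIG1 were higher in ΔLEO1 cells in both sera, and SREBF1, SCAP and INSIG2 were called in neither. SREBF2 stood at 126, 133 and 179 CPM in WT_10, 104, 99.3 and 122 in WT_01, 192, 191 and 216 in Leo1_10 and 236, 217 and 197 in Leo1_01. The genotypes did not overlap in either serum, and the changes were 0.45 (SE 0.14, adjusted p = 0.0211) in 10% serum and 1.00 (SE 0.14, adjusted p = 0.000221) in 0.1% serum. The call in 10% serum was lost without WT_10_1, WT_10_2 or Leo1_10_6 (0.35 to 0.39). INSIG1, itself a target of SREBP (ENSG00000186480, chr7:155297776-155310235, plus strand), had 30.4, 31.7 and 24.3 CPM in WT_10, 18.2, 19.7 and 38.1 in WT_01, 133, 132 and 104 in Leo1_10 and 94.0, 94.2 and 81.7 in Leo1_01. Its lowest ΔLEO1 library lay far above the highest wild-type library, and it was 4.27-fold higher in 10% serum (on the log2 scale, 2.09 with an SE of 0.24 and an adjusted p of 4.53e-05) and 3.55-fold higher in 0.1% serum (1.83 with an SE of 0.24 and an adjusted p of 0.000168).

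SREBF1, the gene of the factor that favours fatty acid synthesis, stood at 82.0, 87.9 and 205 CPM in WT_10, 84.3, 89.6 and 95.6 in WT_01, 115, 115 and 179.9 in Leo1_10 and 127, 129 and 114 in Leo1_01. In 10% serum WT_10_3 and Leo1_10_6, the highest-numbered libraries, were far above the others and the genotypes overlapped, while in 0.1% serum the lowest ΔLEO1 library was above the highest wild-type library. The changes were 0.13 (SE 0.30, adjusted p = 0.758) and 0.45 (SE 0.30, adjusted p = 0.275). SCAP ranged from 61.0 to 77.4 CPM over the 12 libraries, with changes of -0.10 (SE 0.09, adjusted p = 0.403) and -0.01 (SE 0.09, adjusted p = 0.943) that turned positive on the spike-in scale (0.25 and 0.24) and were not called there. Of the 134 other tested genes within 5 Mb of SCAP on chromosome 3, 61 were lower in 10% serum and 42 in 0.1% serum, and 3 were higher in each. INSIG2, at 18.3, 15.9 and 20.7 CPM in WT_10, 12.6, 11.5 and 16.3 in WT_01, 17.6, 18.0 and 17.3 in Leo1_10 and 16.6, 16.4 and 18.7 in Leo1_01, changed by -0.05 (SE 0.14, adjusted p = 0.785) and 0.35 (SE 0.14, adjusted p = 0.0712) with genotype, and the first of these also turned positive on the spike-in scale (0.32).

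Of the 4 fatty acid genes, 3 were higher in ΔLEO1 cells in both sera. ACLY, which makes cytosolic acetyl-CoA from citrate, was at 203, 205 and 246 CPM in WT_10, 255, 264 and 170.4 in WT_01, 385, 386 and 386 in Leo1_10 and 353, 394 and 264 in Leo1_01. WT_01_9 and Leo1_01_12 were low within their groups, and Leo1_01_12 lay barely above WT_01_8, and the genotypes did not overlap. The changes were 0.82 (SE 0.18, adjusted p = 0.0032) and 0.55 (SE 0.18, adjusted p = 0.0311), and the second was lost without WT_01_9, Leo1_01_10 or Leo1_01_11 (0.38 to 0.52). FASN, fatty acid synthase (ENSG00000169710, chr17:82078333-82098332, minus strand), stood at 128, 127 and 209 CPM in WT_10, 126, 103 and 98.1 in WT_01, 398, 394 and 459.5 in Leo1_10 and 273, 271 and 224 in Leo1_01. Every ΔLEO1 library exceeded every wild-type library, with changes of 1.43 (SE 0.19, adjusted p = 0.000111) and 1.23 (SE 0.19, adjusted p = 0.000447). SCD, the desaturase that makes oleate (ENSG00000099194, chr10:100347124-100364834, plus strand), had 189.7, 205 and 439 CPM in WT_10, 125, 117 and 206 in WT_01, 544, 571 and 619 in Leo1_10 and 497, 467 and 457 in Leo1_01. WT_10_3 lay far above the other WT_10 libraries but stayed below Leo1_10, and all ΔLEO1 libraries exceeded all wild-type libraries. SCD changed by 1.06 (SE 0.29, adjusted p = 0.0141) and 1.67 (SE 0.30, adjusted p = 0.00139), and the first call was lost without WT_10_1 or WT_10_2 (0.84 to 0.88). ACACA, the carboxylase that makes malonyl-CoA, ranged from 45.9 to 74.0 CPM over the 12 libraries with changes of 0.05 (SE 0.13, adjusted p = 0.805) and 0.13 (SE 0.13, adjusted p = 0.487).

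Of the genes of uptake and movement inside the cell, MYLIP and STARD4 were higher in ΔLEO1 cells in both sera and NPC1 was called in neither. MYLIP, the LXR target that marks lipoprotein receptors for degradation (ENSG00000007944, chr6:16129125-16148248, plus strand), had 1.55, 2.13 and 2.62 CPM in WT_10, 10.9, 11.2 and 5.58 in WT_01, 8.28, 6.88 and 9.48 in Leo1_10 and 19.8, 20.2 and 17.2 in Leo1_01. The ΔLEO1 libraries were above the wild-type libraries of the same serum, with changes of 1.97 (SE 0.27, adjusted p = 0.000148) and 1.04 (SE 0.25, adjusted p = 0.00759). STARD4, a cytosolic sterol carrier and SREBP target, had 17.5, 17.4 and 23.0 CPM in WT_10, 15.6, 14.9 and 22.1 in WT_01, 33.6, 39.3 and 37.4 in Leo1_10 and 31.0, 40.2 and 39.7 in Leo1_01. Its genotypes did not overlap, and it changed by 0.93 (SE 0.17, adjusted p = 0.00122) and 1.076 (SE 0.17, adjusted p = 0.00063). NPC1, which exports cholesterol from lysosomes, stood at 43.1, 42.8 and 54.7 CPM in WT_10, 28.8, 28.5 and 31.3 in WT_01, 45.6, 54.5 and 55.3 in Leo1_10 and 34.3, 32.7 and 37.0 in Leo1_01, with changes of 0.15 (SE 0.11, adjusted p = 0.336) and 0.23 (SE 0.11, adjusted p = 0.149).

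ABCA1, the efflux transporter (ENSG00000165029, chr9:104781002-104928237, minus strand), was the only member besides PMVK lower in ΔLEO1 cells by the test. It stood at 38.6, 39.3 and 94.7 CPM in WT_10, 288, 249.8 and 109 in WT_01, 18.3, 19.98 and 40.2 in Leo1_10 and 73.4, 84.7 and 80.1 in Leo1_01. In 0.1% serum the wild-type libraries lay above all ΔLEO1 libraries, although WT_01_9 was far below the other WT_01 libraries, and in 10% serum Leo1_10_6 overlapped WT_10. The changes were -1.14 (SE 0.43, adjusted p = 0.0538) in 10% serum, just short of the threshold, and -1.44 (SE 0.43, adjusted p = 0.0231) in 0.1% serum. The second was lost without WT_01_7, WT_01_8, Leo1_01_10 or Leo1_01_11 (-1.49 to -1.18) and was not called on the spike-in scale (-1.26, SE 0.48, adjusted p = 0.112).

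**Figure D3:**
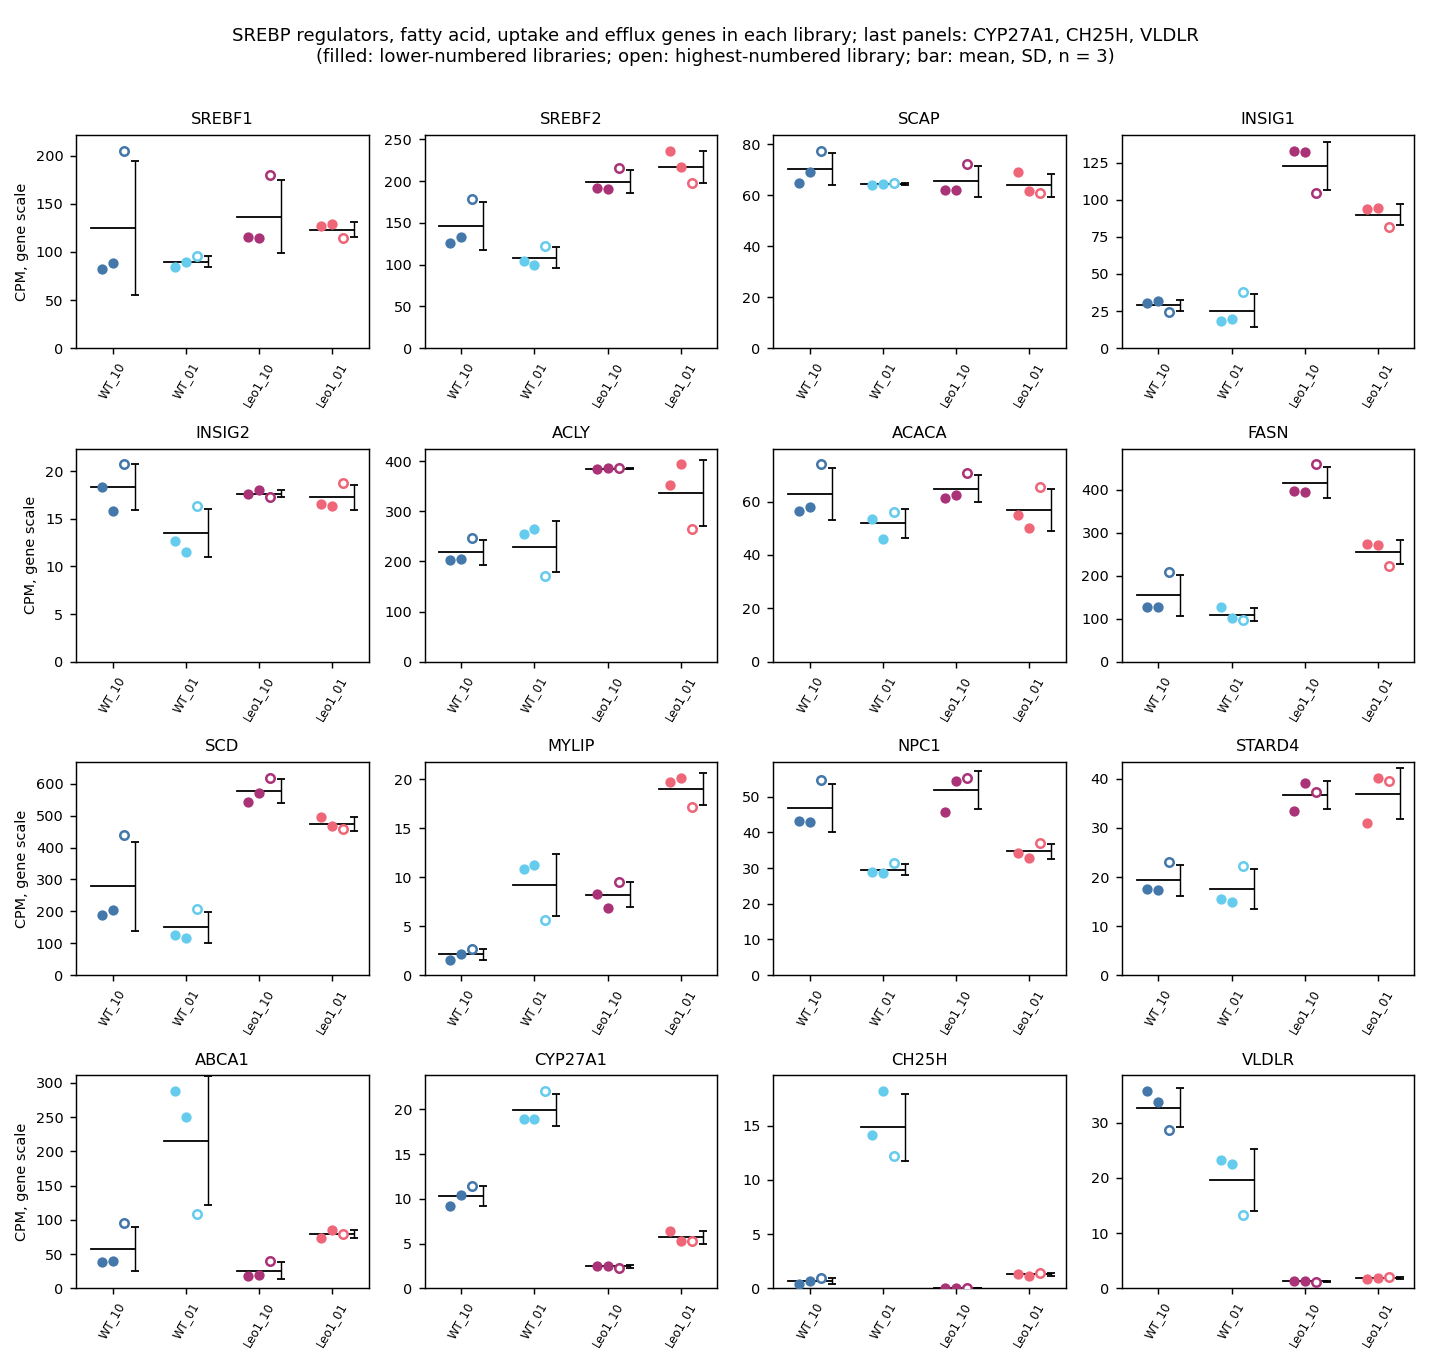
Level of the regulators, fatty acid, uptake and efflux members in each library (y axis, CPM on the gene scale, from 0; x axis, the 4 groups), with CYP27A1, CH25H and VLDLR in the last panels. Filled points are the lower-numbered libraries and open points the highest-numbered library, with the mean and SD (n = 3): INSIG1, FASN and SCD are higher in ΔLEO1 cells, MYLIP and ABCA1 higher in low serum.

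Per kilobase of exon, the highest mean levels in WT_10 were those of SCD (51.8 ± 26.1 CPM per kb, SD, n = 3) and ACLY (41.8 ± 4.72), whose SDs overlapped. SCD was above ACLY in WT_10_3 (81.9 against 47.2) and below it in WT_10_1 (35.4 against 38.9) and WT_10_2 (38.2 against 39.3). SREBF2 (19.3), FASN (16.5) and SREBF1 (15.6) came next, and their SDs overlapped. In Leo1_10 the order of levels was SCD (108), ACLY (73.9), FASN (44.6), INSIG1 (33.7), FDFT1 (27.7) and HMGCS1 (27.4), and the SDs of the last 3 overlapped. There INSIG1 and HMGCS1 had stood at 7.90 and 6.01 CPM per kb in WT_10. The lowest tested levels in WT_10 were those of HSD17B7 (0.381), TM7SF2 (0.576) and MYLIP (0.691).

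Fewer members were called with serum than with genotype. In wild-type cells 2 members were higher in 0.1% serum and 4 lower, where 15.5% of all genes were higher and 16.1% lower. In ΔLEO1 cells 2 were higher and 2 lower, where 15.5% and 12.1% of all genes were called. The medians of the members were -0.17 and -0.19. In wild-type cells the 0.1% serum libraries lay above all 10% serum libraries for 2 members and below them for 6, which held for 24.7% and 23.7% of all genes. In ΔLEO1 cells they lay above for 3 members and below for 10, which held for 22.2% and 21.0% of all genes. MYLIP and ABCA1, both LXR targets, were the higher members in both genotypes, 100% of each list. The 2 comparisons share no library but come from the same fit, and the matching overlap over all genes was not counted. MYLIP rose by 2.13 (SE 0.27, adjusted p = 0.000212) in wild-type and 1.21 (SE 0.25, adjusted p = 0.00449) in ΔLEO1 cells. ABCA1 rose by 1.91 (SE 0.43, adjusted p = 0.00686) and 1.60 (SE 0.43, adjusted p = 0.0178), and the second call was lost without Leo1_10_4, Leo1_10_5 or Leo1_01_11 (1.399 to 1.555).

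NPC1 was lower in 0.1% serum in both genotypes, with changes of -0.66 (SE 0.12, adjusted p = 0.00143) in wild-type and -0.58 (SE 0.11, adjusted p = 0.0036) in ΔLEO1 cells, and the groups did not overlap. In wild-type cells SREBF2, INSIG2 and SCD were also lower, with changes of -0.43 (SE 0.14, adjusted p = 0.0333), -0.44 (SE 0.14, adjusted p = 0.0314) and -0.90 (SE 0.29, adjusted p = 0.0373). Each of these calls was lost without single libraries: SREBF2 without WT_10_3, WT_01_7 or WT_01_8 (-0.40 to -0.26), INSIG2 without WT_10_1, WT_10_3, WT_01_7 or WT_01_8 (-0.44 to -0.34) and SCD without WT_10_3, Leo1_10_4, WT_01_7 or WT_01_8 (-0.90 to -0.40). Without WT_01_9 the number of lower members in wild-type cells was 12, and it was 1 without WT_10_3, WT_01_7 or WT_01_8. In ΔLEO1 cells FASN was lower, with a change of -0.70 (SE 0.18, adjusted p = 0.0158), a call lost without Leo1_10_6 (-0.63). Without Leo1_10_6 or Leo1_01_11 the number of lower members in ΔLEO1 cells was 4, without WT_01_9 it was 6, and without Leo1_10_4, Leo1_10_5 or Leo1_01_11 the number of higher members was 1. For none of these runs was the share of all genes called counted.

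None of the 18 mevalonate and cholesterol enzymes was called with serum on the gene scale in either genotype by the quasi-likelihood test. At an unadjusted p under 0.05, 1 of them (DHCR7, -0.50, SE 0.21, adjusted p = 0.0846) passed in wild-type cells and 3 in ΔLEO1 cells. The share of all genes passing that unadjusted threshold with serum was not counted, so these counts have no background. The number of enzymes called by adjusted p changed without the highest-numbered library of every group. In that fit 8 of the 18 were lower in wild-type cells (ACAT2, MVK, PMVK, FDPS, FDFT1, MSMO1, EBP and DHCR7), where 30% of all genes were lower. In ΔLEO1 cells 7 were lower (HMGCS1, MVK, IDI1, FDFT1, MSMO1, EBP and DHCR7) and 2 higher (SQLE and LSS), where 27.7% of all genes were lower and 28.3% higher. On the spike-in scale 14 members were lower and 1 higher in wild-type cells, where 27.0% of all genes were lower and 0.831% higher, and 20 were lower and 0 higher in ΔLEO1 cells, where 36.4% and 0.793% were called. The member medians there were -1.19 and -1.28, beside the shift of the median gene given above. These counts rested on single libraries: the 14 became 0 to 8 without WT_10_1, WT_10_2, Leo1_10_5, WT_01_7, WT_01_8, WT_01_9 or Leo1_01_10 and 25 to 27 without WT_10_3, Leo1_01_11 or Leo1_01_12, and the 20 became 0 to 10 without WT_10_2, Leo1_10_4, Leo1_10_5, WT_01_7, Leo1_01_10 or Leo1_01_11. The share of all genes called without each of these libraries was not counted. The 0.1% serum libraries lay below all 10% serum libraries for 24 members in wild-type and 23 in ΔLEO1 cells, which held for 53.4% and 50.9% of all genes, and above them for 0 members in each, which held for 1.16% and 0.846%. MYLIP was the member higher in wild-type cells (1.30, SE 0.53, adjusted p = 0.0498), a call lost without any 1 of 10 libraries, all but Leo1_01_11 and Leo1_01_12 (0.92 to 1.66).

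**Figure D4:**
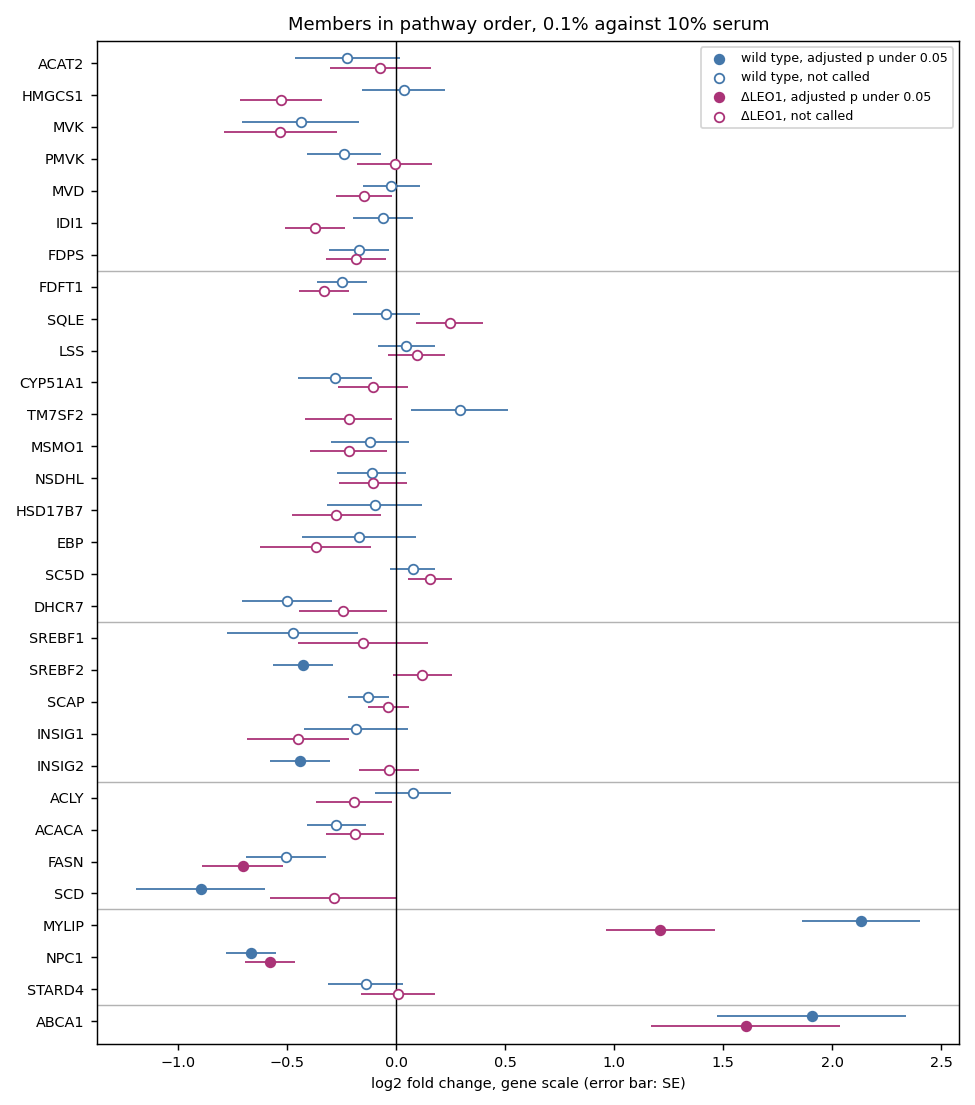
Log2 fold change of 0.1% against 10% serum (x axis, gene scale) for the 31 tested members in pathway order (y axis), in wild-type (blue) and ΔLEO1 cells (purple). Bars are SE and filled points passed adjusted p under 0.05: the 18 mevalonate and cholesterol enzymes lie between -0.53 and 0.29 with no filled point, SCD in wild-type cells (-0.90) and FASN in ΔLEO1 cells (-0.70) lie left and are filled, and MYLIP and ABCA1 lie far to the right in both genotypes.

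The interaction of genotype and serum was called for 0 members on either scale by the quasi-likelihood test, where 1.55% of all genes had a positive and 0.453% a negative interaction on the gene scale, and 0.113% and 0.0604% on the spike-in scale. On the gene scale 2 members passed an unadjusted p under 0.05, SREBF2 (0.55, SE 0.19, adjusted p = 0.21) and MYLIP (-0.92, SE 0.36, adjusted p = 0.273), where 9.28% of all genes passed with a positive and 4.60% with a negative interaction. Relative to the ERCC RNA 0 did, where 1.39% and 0.725% of all genes passed. DESeq2 also called 0 on both scales. Without the highest-numbered library of every group, 9 members had a positive and 5 a negative interaction on the gene scale, where 15.7% and 8.66% of all genes were called. The positive ones were ACAT2, MVK, PMVK, FDPS, SQLE, DHCR7, SREBF2, INSIG2 and SCD, and the negative ones HMGCS1, ACLY, FASN, MYLIP and ABCA1. SREBF2 was 0.59 (SE 0.09) and MYLIP -1.18 (SE 0.20) in that fit. Without WT_01_9 alone, 1 member was called in each direction, and the share of all genes in that run was not counted.

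A second list of 49 genes of neighbouring steps was counted beside the members, and 48 were tested. In ΔLEO1 against wild-type cells 11 were higher and 16 lower in 10% serum, or 22.9% and 33.3%, where 17.9% and 21.4% of all genes were called. In 0.1% serum 8 were higher and 13 lower, or 16.7% and 27.1%, where 15.1% and 17.3% of all genes were called. Of 9 genes of the sterol and isoprenoid side branches 0 were higher in either serum, with 5 lower in 10% serum and 4 in 0.1% serum, and of 5 LXR receptors and targets 0 were higher and 3 lower in each. Of 17 tested genes of fatty acid elongation, desaturation and activation, 6 were higher and 3 lower in 10% serum. In 0.1% serum these counts were 5 and 3. Of 8 genes of SREBP processing and sterol sensing, 3 were higher and 3 lower in 10% serum, and 1 each in 0.1% serum. Of 9 genes of uptake, storage and movement, 2 were higher and 2 lower in each serum. With 0.1% against 10% serum, 8 of the 48 genes were higher and 11 lower in wild-type cells, or 16.7% and 22.9%, where 15.5% and 16.1% of all genes were called. In ΔLEO1 cells 7 were higher and 7 lower, or 14.6% each, where 15.5% and 12.1% of all genes were called. Most of these serum shares were near those of all genes.

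Among these genes CH25H, the cholesterol 25-hydroxylase, had the largest serum change. Its counts were 14, 26 and 37 in WT_10, 490, 495 and 416 in WT_01, 2, 2 and 2 in Leo1_10 and 44, 39 and 53 in Leo1_01. It rose in wild-type cells by 4.42 (SE 0.27, adjusted p = 1.69e-06) and was called in ΔLEO1 cells too, where the fitted size depends on 2 counts per Leo1_10 library and is not given. FADS3, a desaturase, and LRP8, a lipoprotein receptor, fell in wild-type cells, with changes of -1.77 (SE 0.20, adjusted p = 0.000113) and -1.31 (SE 0.21, adjusted p = 0.000792). CYP27A1, the sterol 27-hydroxylase, rose by 1.20 (SE 0.14, adjusted p = 0.00013) in ΔLEO1 cells, and ME1, which supplies NADPH, changed by -1.12 (SE 0.13, adjusted p = 0.000156) there.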

How the data were processed

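The deposited tables hold raw counts per gene and per ERCC transcript, which the authors made with bcl2fastq 2.20.0.422, STAR and featureCounts 1.5.1 from reads of a stranded mRNA kit. The submitters' processing notes name GRCh38 and STAR 2.7.10a. The annotation release and the strand setting are not given in the sources used here. The members and lists were chosen with earlier results of these data known.

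The 13236 genes that passed 1 CPM in at least 3 libraries were tested in R 4.3.3 with edgeR 4.0.16, all 12 libraries in 1 fit of 4 groups, with two-sided quasi-likelihood F tests and Benjamini-Hochberg adjustment over all genes tested. Effective library sizes were ERCC totals times TMM factors on the ERCC transcripts (spike-in scale) or gene totals times TMM factors on the genes (gene scale). SE is the log2 fold change over the root of F. The script was tested on simulated data. All members are described, with values in every library for those called in 1 or more comparisons on the gene scale; of the other pathway genes, the 3 with the largest called change per serum comparison. Positions and exon lengths came from GENCODE on GRCh38. Alternatives included DESeq2 1.42.0, other size factors, no filter and left-out libraries.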

Additional observations from a re-analysis of the deposited data

How the results depend on the processing

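No paired analysis was possible because the running numbers 1 to 12 are not shared between groups. No called change of a member turned direction under any alternative run. On the gene scale, DESeq2's size factors, the likelihood ratio test, DESeq2, no filter and leaving out the highest-numbered libraries kept all 59 member calls, against 50 of 59 with only the 6 libraries compared, 42 at 0.01 and 34 with the lowest-numbered libraries summed. Leaving out the highest-numbered library of every group was planned. It takes away the library that stood apart in each group. More of all genes were then called: for genotype in 10% serum 30.3% higher and 31.9% lower, against 17.9% and 21.4% in the main fit. Keeping all calls in that run is therefore a weak check. Counting the other 2 libraries of a group as 1 by their sum (summed) was chosen after seeing the data. It left 16 members higher in ΔLEO1 cells in each serum, where 6.18% of all genes were higher in 10% serum and 3.82% in low serum. The lists of 16 were not the same: MVK and MYLIP were called only in 10% serum, and SREBF2 and SCD only in low serum. Depth limits what can be said of members with few counts, such as HSD17B7.

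Counts that moved by over 1.5 times follow, each against the main count, and the causes were not tested. The share of all genes was counted only in the highest-numbered-out and summed runs, so the other counts have no background. On the gene scale with the highest-numbered libraries out, 30% of all genes were lower in wild-type serum. In ΔLEO1 serum 27.7% were lower and 28.3% higher. With summed libraries 3.55% were lower and 3.38% higher in wild-type serum, and 1.48% and 2.96% in ΔLEO1 serum. On the gene scale in wild-type serum, the 4 lower members became 7 with no filter, 1 at 0.01, 1 with 6 libraries, 14 without the highest-numbered libraries and 1 with summed libraries, which also left 1 of the 2 higher. In ΔLEO1 serum, the 2 lower became 4 (likelihood ratio), 5 (DESeq2), 5 (no filter), 1 (0.01), 4 (6 libraries), 12 (highest-numbered out) and 0 (summed), and the 2 higher became 1 (0.01), 6 (highest-numbered out) and 0 (summed). For genotype in 10% serum, the 1 lower became 2 (likelihood ratio, no filter and highest-numbered out) and 0 (summed). In 0.1% serum, the 2 lower became 0 (0.01), 1 (6 libraries) and 0 (summed). Of all genes 31.9% were lower in 10% serum with the highest-numbered libraries out. With summed libraries 10.8% were lower in 10% serum and 6.87% in 0.1% serum. The interaction, 0 in each direction, became 9 positive and 5 negative (highest-numbered out) and 1 negative (no filter).

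With spike-in scaling in wild-type serum, the 1 higher became 2 (likelihood ratio, 6 libraries and highest-numbered out) and 0 (ERCC totals alone, no filter, 0.01 and summed), and the 14 lower became 24 (DESeq2), 6 (no filter), 1 (0.01), 27 (6 libraries), 26 (highest-numbered out) and 0 (summed). In ΔLEO1 serum, the 20 lower became 9 (no filter), 2 (0.01), 1 (6 libraries) and 0 (summed). For genotype, the 12 higher in 10% serum became 3 (summed), and the 7 in 0.1% serum became 12 (DESeq2), 4 (6 libraries) and 1 (summed), with 1 lower (highest-numbered out). With the highest-numbered libraries out, 63.4% of all genes were lower and 0.999% higher in wild-type serum, and 11.8% lower for genotype in 0.1% serum. With summed libraries, 2.28% were lower and 0.217% higher in wild-type serum, and 0.596% lower in ΔLEO1 serum. For genotype 1.26% were then higher in 10% serum and 1.53% in 0.1% serum.

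Leaving out 1 library at a time gave the ranges of member counts below. The share of all genes called in these runs was not counted, so the ranges have no background beside them. On the gene scale, 20 to 24 higher and 1 to 2 lower for genotype in 10% serum, 18 to 23 and 0 to 2 in 0.1% serum, 2 higher throughout and 1 to 12 lower in wild-type serum, 1 to 3 and 2 to 6 in ΔLEO1 serum, and 0 to 1 in each direction for the interaction. On the spike-in scale, 7 to 20 higher and 0 lower for genotype in 10% serum (7 without Leo1_10_4, 20 without Leo1_01_12), 4 to 19 and 0 to 1 in 0.1% serum (4 without WT_01_7 or WT_01_9, 19 without Leo1_01_11), 0 to 2 and 0 to 27 in wild-type serum (0 lower without WT_01_7, 27 without Leo1_01_11 or Leo1_01_12), 0 and 0 to 29 in ΔLEO1 serum (0 without Leo1_01_10, 29 without Leo1_01_12), and 0 in both directions for the interaction.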

Other observations

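VLDLR, CYP27A1 and TMEM97 were picked from the neighbouring genes after their values were seen. VLDLR, a lipoprotein receptor, stood at 35.7, 33.6 and 28.7 CPM in WT_10, 23.3, 22.5 and 13.2 in WT_01, 1.398, 1.36 and 1.24 in Leo1_10 and 1.65, 1.88 and 2.08 in Leo1_01, and was lower in ΔLEO1 cells, with changes of -4.61 (SE 0.22, adjusted p = 7.19e-08) in 10% serum and -3.39 (SE 0.21, adjusted p = 7.85e-07) in 0.1% serum, with no overlap. CYP27A1, the sterol 27-hydroxylase, had 9.22, 10.4 and 11.4 CPM in WT_10, 18.9, 18.9 and 22.03 in WT_01, 2.56, 2.55 and 2.31 in Leo1_10 and 6.47, 5.27 and 5.33 in Leo1_01. It was lower in ΔLEO1 cells in both sera, with changes of -2.07 (SE 0.14, adjusted p = 6.93e-07) and -1.81 (SE 0.13, adjusted p = 1.86e-06). TMEM97, a sterol-binding membrane protein, had 19.6, 18.9 and 11.9 CPM in WT_10, 16.7, 17.5 and 23.9 in WT_01, 44.5, 44.1 and 44.9 in Leo1_10 and 32.6, 29.3 and 36.8 in Leo1_01, and was higher in ΔLEO1 cells by 1.405 (SE 0.19, adjusted p = 0.000118) and 0.77 (SE 0.18, adjusted p = 0.00797).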
